A study of Mus musculus with 17 samples.

Results

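The 36 genes described here encode proteins that copy DNA: the MCM helicase, the factors that load and start it, the primase and polymerases, the sliding clamp and its loader, the enzymes that join Okazaki fragments, the single-strand binding complex and the enzymes that supply nucleotides. They were taken by name from the deposited table of 21931 genes, in which 36 of 36 names were found. The question was whether their RNA differed in a tumor left untouched while the tumor on the other flank of the mouse was frozen. RNA was sequenced from 17 whole tumors grown from MC38, a mouse colon cancer line, under the skin of wild-type C57BL/6J mice aged 6 to 8 weeks and implanted on both flanks. In the Cryo group (8 tumors) one flank tumor was cryoablated on day 7, in repeated freezing cycles of 20 s by the deposited description, and the contralateral tumor was collected 5 days later. The Con group (9 tumors) is labelled Control, without ablation, and Day 5. The labels do not tie a tumor to a named mouse, so the p-values below measure the spread between these 17 samples.

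Replication starts when the origin recognition complex, CDC6 and CDT1 load the MCM2-7 ring on DNA in G1 phase. CDC45 and the GINS complex then join MCM2-7 to form the active helicase, primase and DNA polymerase alpha lay down primers, and replication factor C opens PCNA, the ring that holds polymerases and ligase on DNA. Many of these genes are known targets of E2F transcription factors, which switch on the G1 to S transition, and as a group they mark dividing cells.

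Because the members were chosen for a shared role, their promoters were searched for 3 short motifs in RefSeq windows of the GRCm38.p6 build, 250 bases before to 50 bases after a gene's start. Of the 36 genes, 29 had a window, and the 29 genes had 33 windows. The E2F motif was searched on both strands as TTTCCCGC, TTTCGCGC, TTTGCCGC or TTTGGCGC, and matches that overlap on opposite strands were counted separately. It was in 11 of 33 member windows (33.3%) and in 744 of 32851 windows of all genes (2.27%). The CCAAT box was in 21 member windows (63.6%) against 37.4% of all windows, and the cell cycle homology region, as TTTGAA or TTCGAA, was in 6 member windows (18.2%) against 19.2%. The 11 genes with an E2F match were Cdc6, Cdt1, Gins3, Lig1, Mcm3, Mcm5, Mcm6, Mcm7, Orc1, Pola1 and Rfc3. A match is a description of letters and does not show binding.

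The following windows are printed because, among the members with a match, these 5 followed the members' mean level most closely across tumors. Each is on the gene's own strand and capitals mark the E2F letters. They lie at chr7:13278576-13278875 (Lig1), chr1:20820263-20820562 (Mcm3), chr8:122567765-122568064 (Cdt1), chr5:138171834-138172133 (Mcm7) and chr5:151651159-151651458 (Rfc3).
Lig1: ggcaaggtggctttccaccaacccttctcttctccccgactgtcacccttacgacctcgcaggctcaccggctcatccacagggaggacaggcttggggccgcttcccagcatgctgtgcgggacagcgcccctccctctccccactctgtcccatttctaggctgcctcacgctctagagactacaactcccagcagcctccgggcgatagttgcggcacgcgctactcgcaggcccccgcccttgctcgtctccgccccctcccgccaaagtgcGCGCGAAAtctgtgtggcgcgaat
Mcm3: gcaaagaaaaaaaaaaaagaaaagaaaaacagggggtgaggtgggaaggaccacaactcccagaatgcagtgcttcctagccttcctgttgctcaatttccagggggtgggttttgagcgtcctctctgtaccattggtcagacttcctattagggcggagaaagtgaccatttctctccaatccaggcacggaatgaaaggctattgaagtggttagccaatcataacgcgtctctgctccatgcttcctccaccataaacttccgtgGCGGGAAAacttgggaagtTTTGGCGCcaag
Cdt1: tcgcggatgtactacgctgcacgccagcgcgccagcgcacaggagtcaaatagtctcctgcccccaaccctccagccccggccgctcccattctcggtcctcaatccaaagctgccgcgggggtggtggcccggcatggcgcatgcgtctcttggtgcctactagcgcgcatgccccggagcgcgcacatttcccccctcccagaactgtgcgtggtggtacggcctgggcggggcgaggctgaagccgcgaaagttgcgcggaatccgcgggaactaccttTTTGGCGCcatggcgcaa
Mcm7: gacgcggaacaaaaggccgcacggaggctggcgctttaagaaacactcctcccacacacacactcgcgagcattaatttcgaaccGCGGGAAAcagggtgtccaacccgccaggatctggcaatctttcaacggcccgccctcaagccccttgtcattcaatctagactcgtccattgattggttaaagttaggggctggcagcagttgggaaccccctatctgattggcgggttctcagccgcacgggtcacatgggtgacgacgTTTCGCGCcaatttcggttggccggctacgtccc
Rfc3: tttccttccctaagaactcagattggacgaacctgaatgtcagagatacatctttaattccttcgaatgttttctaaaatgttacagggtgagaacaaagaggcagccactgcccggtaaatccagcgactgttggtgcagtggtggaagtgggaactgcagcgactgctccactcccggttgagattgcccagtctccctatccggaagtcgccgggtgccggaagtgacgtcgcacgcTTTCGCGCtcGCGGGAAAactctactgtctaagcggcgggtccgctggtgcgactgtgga

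In these windows the match of Lig1 began 27 bases downstream of the start and that of Cdt1 at base 33. Mcm3 held matches at bases 20 and 39, Rfc3 at bases -10 and 1, and Mcm7 at bases -165 and 17. Pola1 and Cdc6, which also held a match, moved against the members' mean across tumors (r = -0.61 and -0.35 over 17 tumors), so an E2F match and a common course did not always go together. With a smooth trend over gene length removed from each tumor, the values were weaker (r = -0.33 and -0.10).

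Totals of the count table ran from 14154687 to 17898672 reads in Con and from 13524899 to 16847050 in Cryo tumors, of which the 36 genes took 0.397% to 0.474% and 0.401% to 0.486%. 3 Cryo tumors stood apart before any member was examined. Cryo 2, Cryo 4 and Cryo 5 had the lowest values on the first principal component of the most variable genes, which held 68.1% of their variance, and the steepest length slopes. The length slope is the change of a gene's log2 CPM, relative to its own mean over tumors, for each doubling of gene length, fitted over 13005 genes. It was -0.30, -0.27 and -0.39 in these 3 tumors, and -0.13 and -0.17 in Con 1 and Con 5, and it lay between -0.01 and 0.23 in the other 12 tumors, so short genes read relatively high in the first 5. Values with and without the 3 Cryo tumors are therefore given below. Epithelial markers, such as Krt8, Krt18, Epcam and Cdh1, were low for a carcinoma line: the summed level of 7 of them was 16.5 to 99.5 CPM in Con and 9.7 to 220.3 CPM in Cryo tumors, while 8 fibroblast markers summed to 7429 to 13335 and 5047 to 10018 CPM.

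Levels of different genes were compared per gene length, as the deposited FPKM. Pcna, the sliding clamp, was the most abundant member (186 FPKM on average over 17 tumors). Within the MCM ring, whose 6 subunits are present in equal number in the complex, Mcm6 was highest at 93.6 FPKM and above Mcm5 in 17 of 17 tumors. Mcm5 (69.2 FPKM) and Mcm3 (69.1 FPKM) could not be ordered, since Mcm5 was the higher in 7 of 17 tumors. Mcm7 (54.2 FPKM), Mcm4 (41.5 FPKM) and Mcm2 (23.9 FPKM) followed, with Mcm7 above Mcm4 in 13 tumors and Mcm4 above Mcm2 in 16. Among the GINS subunits Gins4 (34.4 FPKM) exceeded Gins1 (22.4 FPKM), and Gins1 exceeded Gins3 (11.4 FPKM), in every tumor, while Gins3 and Gins2 (11.3 FPKM) changed places between tumors. Of the loader subunits, Rfc4 averaged 25.1 FPKM and Rfc1, Rfc3, Rfc5 and Rfc2 lay between 17.2 and 20.4 FPKM. Of ribonucleotide reductase, which makes deoxyribonucleotides, the small subunit Rrm2 (43.3 FPKM) was above the large subunit Rrm1 (24.1 FPKM) in 17 of 17 tumors. Such orders depend on the listed length, which is 11012 bases for Rrm1 and 2771 for Rrm2. In CPM, which carries no length, Rrm1 averaged 261 in Con and 270 in Cryo tumors, and Rrm2 123 and 114. Mcm2 (6956 bases) likewise averaged 166 and 165 CPM, above Mcm4 (3589 bases) at 151 and 139 CPM. The licensing genes Orc1 (2.53 FPKM) and Cdc6 (8.04 FPKM) were low.

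**Figure D1:**
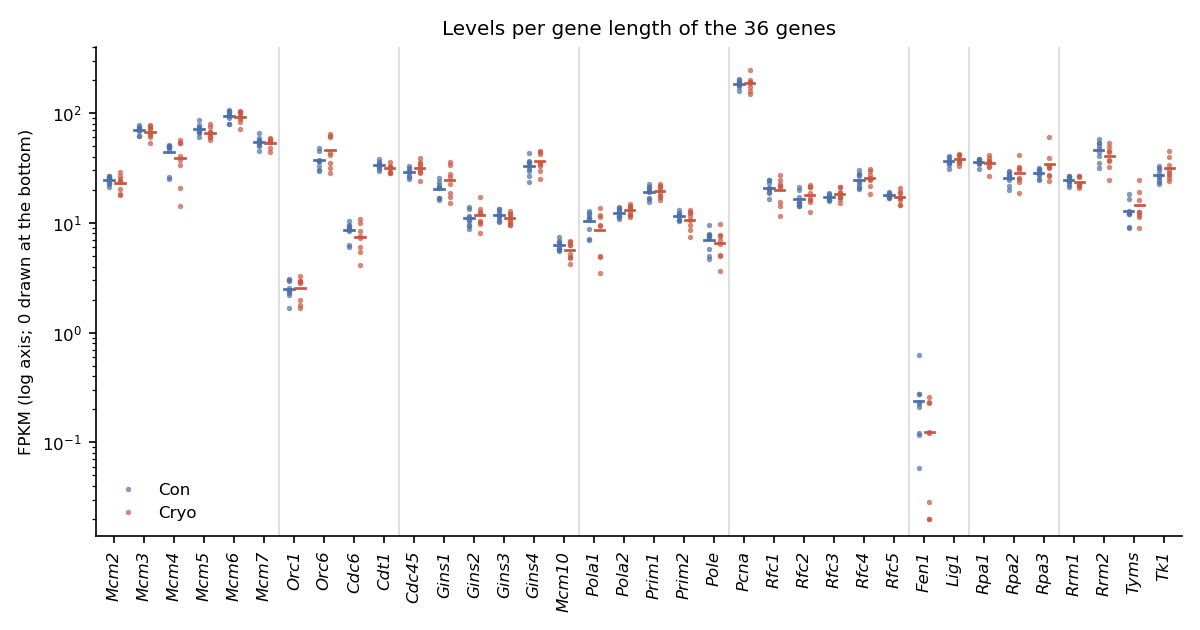
Deposited FPKM values (log axis) of the 36 genes in each Con (blue) and Cryo (red) tumor, with a bar at the group mean and grey lines between roles. Pcna is highest, every Fen1 point lies below every point of the other genes, and the Con and Cryo points of each gene overlap.

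Fen1, the nuclease that trims the flap of Okazaki fragments, was the only member that did not pass the filter on low counts. It had 2 to 24 counts in Con tumors and 0 to 10 in Cryo tumors, against at least 79 for Orc1, the member with the next lowest count. Its mean was 0.185 FPKM. The table lists its gene as overlapping Tmem258 on the other strand by 156 bases, and 11 members in all overlap another listed gene. Whether reads were counted by strand is not given in the sources used here, so the counts of these members are uncertain to that extent.

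Across the 35 members tested, Con and Cryo tumors were hardly apart. By edgeR's quasi-likelihood test 1 member, Rpa3, was higher in Cryo at an unadjusted p under 0.05 and 0 were lower, against 3.74% and 1.17% of 13005 genes tested (4.91% in either direction). The count of 1 rested on single tumors: it was 8 without Cryo 7, 5 without Cryo 6, 4 without Cryo 3 or Cryo 8, 3 without Con 1 or Con 5, and 0 without any other tumor. Of all genes, 10.1% passed in either direction without Cryo 7, 9.95% without Cryo 6, 10.6% without Cryo 3 and 5.51% without Cryo 8. That share was 9.89% without Con 1, 9.61% without Con 5 and 1.93% to 5.21% without any other tumor. DESeq2 called 2 members at an unadjusted p under 0.05 (Pola2 and Rpa3, both higher), and 6.77% of all genes. With limma voom 2 members (Rfc2 higher and Cdc6 lower) and 10.1% of all genes passed. None passed after Benjamini-Hochberg adjustment over 13005 genes in edgeR (smallest adjusted p = 0.728), DESeq2 and limma voom gave 0 as well, and of all genes 0.0% passed in edgeR. None passed the study's threshold of an absolute log2 fold change over 1 and p under 0.05, which 0.492% of all genes did. In 0 members were the groups free of overlap, and 0.0% of all genes had such groups.

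Of the 35 fold changes, 24 were above 0 and 11 below, where 48.0% of all genes were above 0. The median log2 fold change of the members was 0.07 and that of all genes -0.01. They ranged from -0.20 (Pola1) to 0.45 (Orc6). Without Cryo 2, Cryo 4 and Cryo 5 the members' median was -0.03, and 27 of the 35 fold changes had the opposite sign. These 3 tumors had the highest mean member level of all 17 (0.21, 0.17 and 0.27 in log2 CPM relative to each gene's mean). Leaving them out therefore lowers the Cryo side by itself. Con 1 and Con 5, whose slopes were also negative, were kept. On the FPKM scale, which carries no TMM factor and on which the median gene was lower in Cryo by a log2 ratio of -0.10, 17 members had the higher mean in Cryo and 18 in Con. In whole tumors a difference in the number of dividing cells cannot be told apart from a difference in these RNAs per cell.

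**Figure D2:**
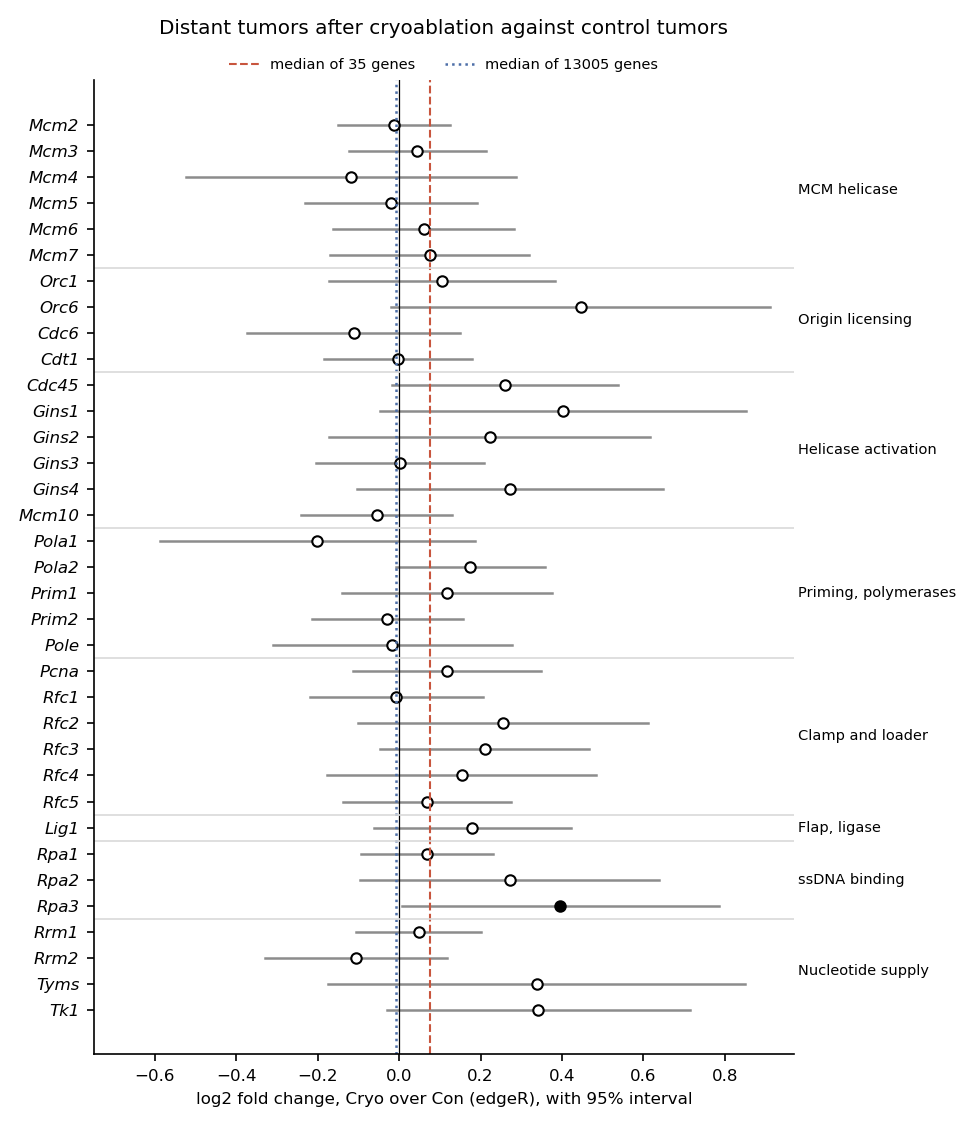
Log2 fold change of Cryo over Con for the 35 members tested (edgeR), with 95% intervals, grouped by role. The filled point (Rpa3) is the one with an unadjusted p under 0.05, the dashed line is the members' median (0.07) and the dotted line the median of 13005 genes (-0.01).

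The 6 MCM subunits were the steadiest role, with 0 of 6 past an unadjusted p of 0.05 and fold changes from -0.12 to 0.07 on the log2 scale. Mcm2 read 146, 169 and 176 CPM (lowest, median, highest) in Con and 149, 164 and 188 CPM in Cryo tumors, the smallest range of any member (1.29-fold over 17 tumors). Its log2 fold change was -0.01 ± 0.07 (SE). Mcm6 read 339.9, 423 and 533 CPM in Con and 367, 457 and 537 CPM in Cryo tumors. Con 3 and Con 4 were low and Con 1 and Cryo 5 high, and the groups overlapped (log2 fold change 0.06 ± 0.11). Mcm4 behaved unlike the other subunits. It read 96.8, 166 and 176 CPM in Con and 66.5, 147 and 189 CPM in Cryo tumors, with its lowest values in Cryo 5, Cryo 2, Con 5 and Con 1, the same 4 tumors that held the highest values of Mcm6. Its log2 fold change was -0.12 ± 0.19.

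Among the licensing genes, which load the ring, Orc6 had the largest fold change of the members. Orc6 read 68.2, 85.5 and 127 CPM in Con and 67.1, 102 and 199 CPM in Cryo tumors. Cryo 2, Cryo 4 and Cryo 5 (176 to 199 CPM) were above every Con tumor, while Cryo 7 was the lowest of all 17. The log2 fold change was 0.45 ± 0.22 (95% interval -0.02 to 0.91, unadjusted p = 0.0591, adjusted p = 0.728 by edgeR), and -0.09 without those 3 Cryo tumors. Cdc6, the loader ATPase, had 33.6, 43.6 and 51.2 CPM in Con and 28.2, 39.6 and 52.7 CPM in Cryo tumors (-0.11 ± 0.12). Cdt1, its partner, had a log2 fold change of -0.002 ± 0.087, but its listed gene lies within that of Galnt2l on the same strand. Orc1, the ATPase of the origin recognition complex, had 0.10 ± 0.13.

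Of the helicase activators 0 of 6 passed. Cdc45 read 82.5, 96.3 and 113 CPM in Con and 79.7, 107 and 158 CPM in Cryo tumors, with Cryo 2, Cryo 4 and Cryo 5 at 141 CPM or more and Cryo 7 lowest (log2 fold change 0.26 ± 0.13, unadjusted p = 0.0651, adjusted p = 0.728 by edgeR). Gins1 read 22.1, 29.5 and 41.7 CPM in Con and 22.1, 35.0 and 70.2 CPM in Cryo tumors (0.40 ± 0.21), again with the same 3 Cryo tumors on top. Gins2 and Gins4 had log2 fold changes of 0.22 ± 0.19 and 0.27 ± 0.18, Gins3 of 0.003 ± 0.098 and Mcm10, which helps to start the helicase, of -0.06 ± 0.09. Without the 3 Cryo tumors the log2 fold changes of Cdc45 and Gins1 were -0.02 and -0.08. With an offset for gene length the median log2 fold change of the 6 genes went from 0.24 to 0.11.

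Of the primase and polymerase genes 0 of 5 passed. Pola1, the catalytic subunit of polymerase alpha, had the lowest fold change of the members. It read 66.2, 88.2 and 106 CPM in Con and 40.3, 81.3 and 113 CPM in Cryo tumors. Cryo 5, Cryo 4 and Cryo 2 were the lowest and Cryo 6 the highest of 17 (-0.20 ± 0.18), and without the 3 tumors the value was 0.09. Its partner Pola2 read 87.4, 99.2 and 110.4 CPM in Con and 93.9, 107 and 136 CPM in Cryo tumors, with 6 of 8 Cryo tumors above the Con median (0.17 ± 0.09, unadjusted p = 0.0601 and adjusted p = 0.728 by edgeR). The primase genes Prim1 and Prim2 had 0.12 ± 0.12 and -0.03 ± 0.09, and Pole, the catalytic subunit of the leading-strand polymerase, -0.02 ± 0.14.

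For the clamp and its loader, 0 of 6 passed. Pcna read 342, 427 and 516 CPM in Con and 359.6, 456 and 669 CPM in Cryo tumors, with Cryo 4 alone above the Con range (0.12 ± 0.11). The small loader subunits Rfc2, Rfc3, Rfc4 and Rfc5 had log2 fold changes of 0.26 ± 0.17, 0.21 ± 0.12, 0.15 ± 0.16 and 0.07 ± 0.10, and the large subunit Rfc1 of -0.01 ± 0.10. Lig1, which seals Okazaki fragments, read 119, 144 and 181 CPM in Con and 132, 159 and 228 CPM in Cryo tumors. Here 7 of 8 Cryo tumors were above the Con median, the groups overlapped, and the log2 fold change was 0.18 ± 0.11.

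Rpa3, the smallest subunit of the complex that coats single-stranded DNA, was the member with the smallest p. It read 25.8, 31.8 and 39.3 CPM in Con and 26.2, 36.2 and 78.2 CPM in Cryo tumors. Cryo 4 was highest, followed by Cryo 2 (51.3 CPM) and Cryo 5 (46.5 CPM), and the other 5 Cryo tumors lay within the Con range. The log2 fold change was 0.40 ± 0.19 (95% interval 0.01 to 0.79), with an unadjusted p of 0.0468 and an adjusted p of 0.728 by edgeR. An exact two-sided permutation test over 24310 splits of the tumors gave p = 0.117 for Rpa3, and without Cryo 2, Cryo 4 and Cryo 5 the value was -0.03. Rpa3 also passed the unadjusted threshold with DESeq2 (log2 fold change 0.41), RLE factors (0.41) and a filter on mean counts (0.40). It did not pass with upper-quartile scaling (0.38), no filter (0.38), limma voom (0.17) or the replicate number as a block (0.32). Rpa3, the shortest member at 1136 bases, was also not called with the offset for gene length. With the block and that offset together its log2 fold change was 0.09. In the main fit Rpa2 had 0.27 ± 0.18 and Rpa1, the large subunit, 0.07 ± 0.08.

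Of the nucleotide enzymes 0 of 4 passed. Tyms, thymidylate synthase, had the widest range of the 35 members (3.97-fold over 17 tumors). It read 49.2, 69.6 and 119 CPM in Con and 51.6, 81.0 and 196 CPM in Cryo tumors, with Cryo 5 and Cryo 2 above the Con range and a log2 fold change of 0.34 ± 0.24. Tk1, thymidine kinase, read 107, 131 and 185 CPM in Con and 118, 152 and 303 CPM in Cryo tumors (0.34 ± 0.18), and 7 of 8 Cryo tumors were above the Con median. Rrm1 had 0.05 ± 0.07. Rrm2 went the other way, with 92.8, 124 and 154 CPM in Con, 89.2, 117 and 136 CPM in Cryo tumors and a value of -0.11 ± 0.11.

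Variation between tumors was larger than the difference between groups. The median coefficient of variation of the members was 14.9% in Con and 19.5% in Cryo tumors, below the 18.7% and 27.8% of all genes tested. Among the 9987 genes with a mean CPM of at least the lowest tested member it was 15.9% and 24.7%. The SD of log2 CPM was larger in Cryo for 31 of 35 members (88.6%), for 80.2% of all genes and for 84.8% of those 9987. Cryo 5 held the highest value of 14 members and the lowest of 5, Cryo 4 the highest of 7 and Cryo 6 the highest of 6. Con 3 held the lowest value of 16 members and Cryo 7 of 10. Both groups thus held tumors with high and tumors with low levels of these genes.

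**Figure D3:**
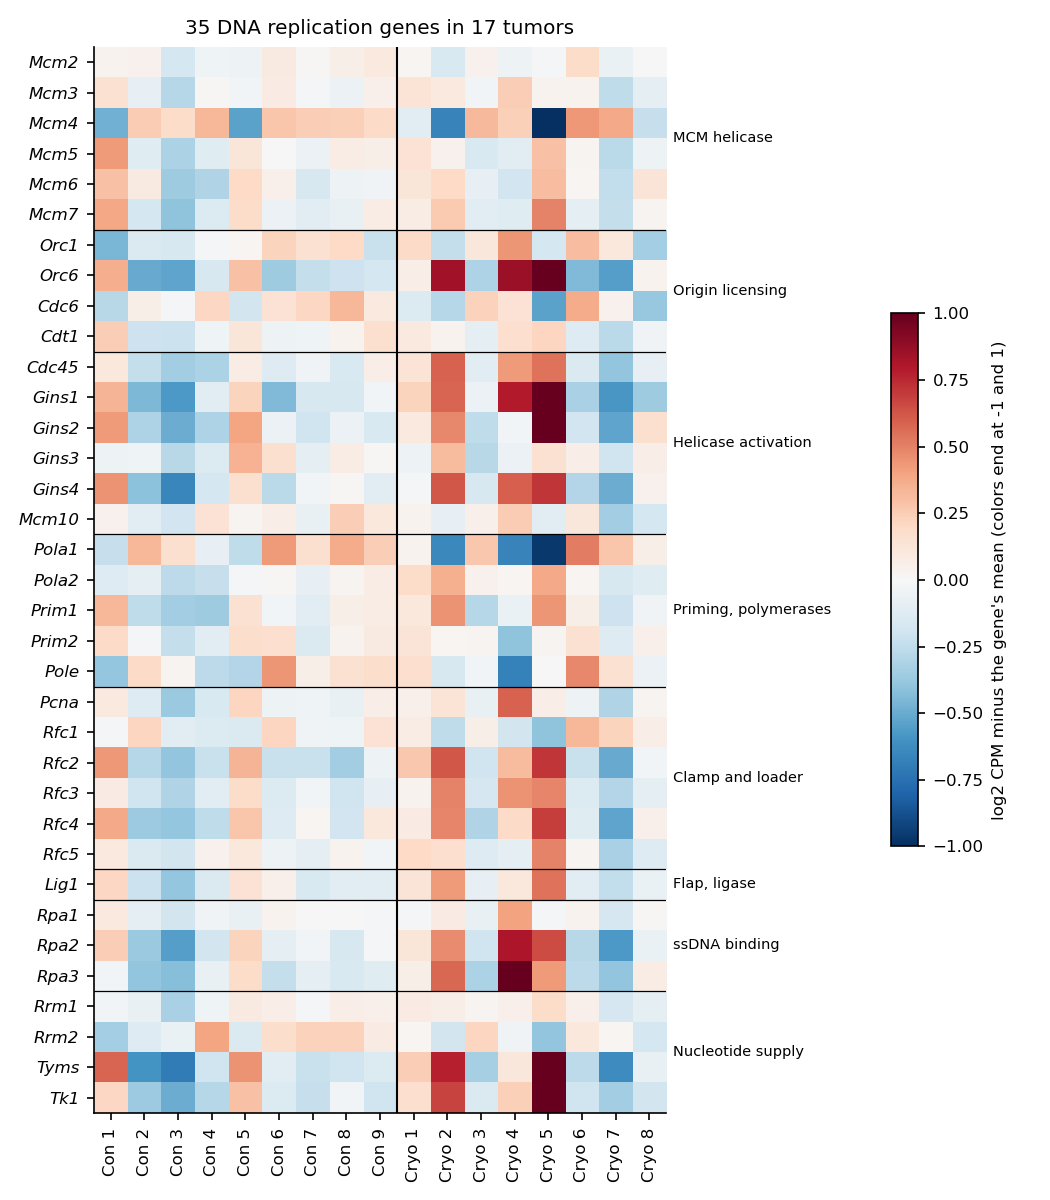
Log2 CPM of the 35 members (rows, by role) in 9 Con and 8 Cryo tumors (columns), relative to each gene's mean over the 17 tumors, with colors ending at -1 and 1. Cryo 2, Cryo 4 and Cryo 5 hold the deepest reds and are blue for Pola1, and Con 3 and Cryo 7 are blue for most members.

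The members moved together across tumors, with a few that moved against the rest. Over 595 pairs the median Pearson r of log2 CPM was 0.49, against 0.00 for all gene pairs, with 49.2% of member pairs above 0.5 and 15.3% below -0.5 (21.0% and 20.7% of all pairs). The median was 0.59 within Con, 0.44 within Cryo, 0.58 without Cryo 2, Cryo 4 and Cryo 5, and 0.46 after a smooth trend over gene length had been removed from each tumor. Rrm1 (r = 0.91) and Lig1 (r = 0.89) followed the members' mean most closely, and Mcm4 (r = -0.62) and Pola1 (r = -0.61) went against it most. After removal of the length trend Mcm2 followed it most closely (r = 0.95, against 0.23 before). Mcm4 (r = -0.54) and Rrm2 (r = -0.53) then went against it most, and Pola1 had r = -0.33. These values describe 17 tumors that share the same libraries for every gene.

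Most members were also related to the length slope of the tumor, in either direction. At a p adjusted over the 35 correlations, 25 members were negatively and 6 positively related to the slope (two-sided permutation test with 100000 resamples); r was below -0.5 for 71.4% of members and 31.0% of all genes, and above 0.5 for 17.1% and 35.3%. Orc6 had Pearson's r = -0.98 and Spearman's rho = -0.97 (permutation p = 1e-05, the smallest the resamples can give), with r = -0.96 within Con, -0.997 within Cryo and -0.97 without Cryo 5 and Cryo 2, the tumors farthest from the median slope. Pola1 had r = 0.97 and rho = 0.93 (permutation p = 1e-05), with r = 0.91 within Con, 0.98 within Cryo and 0.94 without those 2 tumors. Rpa3 had r = -0.86 and rho = -0.93 (permutation p = 2e-05), and r = -0.87 and -0.86 within Con and Cryo. The 6 positive members were Mcm4, Cdc6, Pola1, Pole, Rfc1 and Rrm2. Within Con 14 members were negative and 3 positive, within Cryo 15 and 4, and without Cryo 5 and Cryo 2 18 and 4.

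Members of like length could have opposite signs. Listed lengths ran from 1136 bases (Rpa3) to 11160 bases (Pole), and across the 35 genes, which are not independent, log length and r with the slope had Pearson's r = 0.43. The 18 members of 4097 bases or less had a median r of -0.81 and the 17 longer ones of -0.52. Rrm1, at 11012 bases, had r = -0.52 and Tyms, at 6089 bases, -0.89, while Mcm4, at 3589 bases, had 0.83. After the trend over length had been removed, Orc6 still had r = -0.95 and Pola1 0.86 with the slope. What the slope stands for was not tested.

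**Figure D4:**
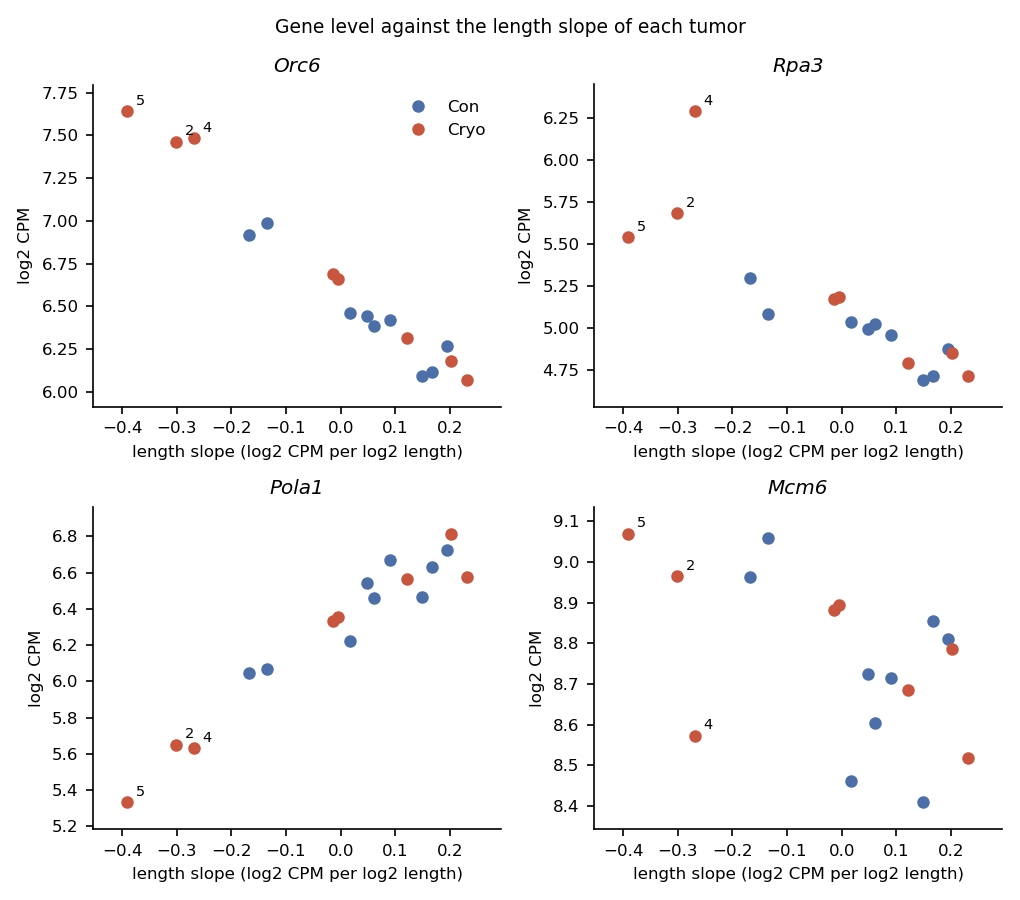
Log2 CPM of Orc6, Rpa3, Pola1 and Mcm6 against the length slope of each tumor (change in log2 CPM per doubling of gene length), Con blue and Cryo red, with Cryo 2, 4 and 5 numbered. Orc6 and Rpa3 are high and Pola1 is low where the slope is negative, in both groups, and Mcm6 is more scattered (r = -0.52).

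Mki67, a gene expressed in cycling cells, gave a second measure of each tumor. It read 341 to 681 CPM in Con and 487 to 667 CPM in Cryo tumors, with Con 3 and Con 4 lowest. Of the 35 members 17 were positively and 0 negatively related to Mki67 at a p adjusted over the 35 correlations, and r was above 0.5 for 48.6% of members and 11.5% of all genes. Mcm6 was closest, with r = 0.84 and rho = 0.80 (permutation p = 6e-05, adjusted p = 0.0021). The count rested on Con 3: 2 members passed without it, 16 without Con 4 and 0 without both, and 10 passed without Cryo 5. Mcm6 had r = 0.73 without Con 3 and Con 4. Within each group alone 1 member passed, Prim2 in Con (r = 0.94) and Mcm5 in Cryo (r = 0.93), and without Cryo 2, Cryo 4 and Cryo 5 16 did. With the trend over gene length removed, a setting chosen after seeing the data, 25 members were positively and 2 negatively related to Mki67. Those 2 were Mcm4 (r = -0.75) and Rrm2 (r = -0.70), which had r = -0.50 and -0.43 without the removal.

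**Figure D5:**
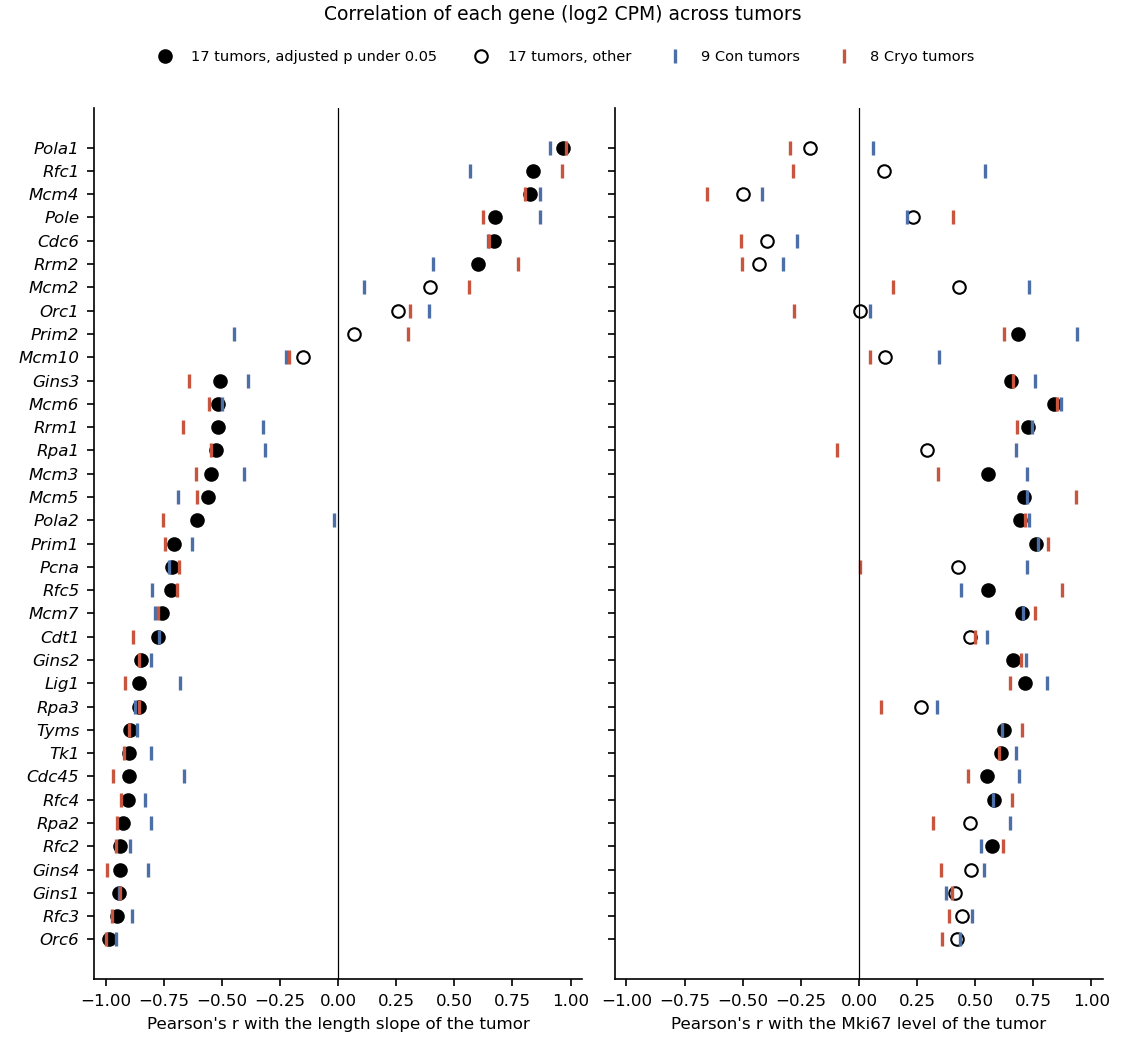
Pearson's r of each member with the length slope (left) and with Mki67 (right) over 17 tumors, filled where the adjusted permutation p is under 0.05, with r within Con (blue) and within Cryo (red). Members at the top rise with the slope and those at the bottom fall with it, and in the right panel 17 members are filled, all above 0.

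Ptprc, the leukocyte gene that encodes CD45, was added as a measure after seeing the data, because Mcm4 and Rrm2 went against the other members. It read 30.0 to 209 CPM in Con and 29.6 to 113 CPM in Cryo tumors, with Con 4 highest and Cryo 5 lowest. Of the 35 members 4 were positively related to it (Mcm4, Cdc6, Pola1 and Rrm2) and 20 negatively. Here r was below -0.5 for 60.0% of members and 27.1% of all genes, and above 0.5 for 11.4% and 28.7%. Prim1 had r = -0.84 and rho = -0.79 (permutation p = 5e-05, adjusted p = 0.00098), with r = -0.93 within Con, -0.74 within Cryo and -0.77 without Con 4 and Cryo 5. Rrm2 had r = 0.80 and rho = 0.73 (permutation p = 0.00014, adjusted p = 0.00098), with 0.69 within Con, 0.98 within Cryo and 0.66 without those 2 tumors. Within Con 1 member was positive and 14 negative, and within Cryo 1 was positive and 0 negative. Ptprc was itself lowest in Cryo 5, Con 1, Con 5 and Cryo 2 (29.6 to 43.5 CPM), 4 of the 5 tumors with slopes of -0.13 or steeper, and read 54.7 CPM in Cryo 4, the other one. With the trend over length removed 0 members were positive and 9 negative. Ptprc did not stand for every leukocyte marker: the summed level of the 7 leukocyte markers was highest among Cryo tumors in Cryo 5 (799.6 CPM), where Ptprc was lowest, and so was that of the 8 macrophage markers (3522 CPM). Between the groups Cd52 and Coro1a, named after their values were seen, had log2 fold changes of 0.48 ± 0.34 and 0.24 ± 0.31 and Ptprc of -0.52 ± 0.33 (SE). The part of leukocyte content in the levels of the members was not tested.

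Of the genes outside the 36 and the other lists, the 10 with the highest r with the members' mean over 17 tumors were Tpx2 (0.94), Kif2c (0.94), Cdc25c (0.93), Knstrn (0.93), Ndc80 (0.92), Pwwp3a (0.91), Ints10 (0.91), Kif22 (0.91), Pbp2 (0.90) and Pak1 (0.89). Tpx2, Kif2c, Kif22, Knstrn and Ndc80 act in the mitotic spindle or at kinetochores, and Cdc25c is a phosphatase that activates CDK1. After removal of the trend over length Tpx2 had r = 0.98 and Pbp2 0.30.

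Related genes outside the 36 also held few calls between the groups, where 4.91% of all genes passed. Fold changes above and below 0 numbered 12 and 23 for other replisome and origin genes, 8 and 22 for G1/S regulators and 3 and 10 for checkpoint genes. They numbered 4 and 8 for other nucleotide synthesis genes, 4 and 4 for chromatin assembly genes and 9 and 6 for G2/M genes. Of 35 other replisome and origin genes 1 was higher in Cryo at an unadjusted p under 0.05, Pold4, an accessory subunit of polymerase delta (3.59 ± 1.35 CPM, SD, n = 9 in Con and 6.08 ± 4.23 CPM, SD, n = 8 in Cryo; log2 fold change 0.75 ± 0.35, adjusted p = 0.728 by edgeR), and 0 were lower. Of 30 G1/S regulators tested 1 was lower, Ccnd3, a D-type cyclin (88.2 ± 11.4 and 75.3 ± 11.1 CPM; -0.23 ± 0.10, adjusted p = 0.728), and 0 were higher. Neither direction had a call among 8 genes of chromatin assembly behind the fork, 12 other nucleotide synthesis genes, 13 checkpoint genes and 15 G2/M genes. E2f1 (-0.01 ± 0.11), Ccne1 (-0.02 ± 0.14), Ccna2 (-0.17 ± 0.16), Cdkn1a (-0.08 ± 0.14), Cdk1 (0.15 ± 0.15), Ccnb1 (-0.15 ± 0.11), Top2a (-0.02 ± 0.09) and Mki67 (0.18 ± 0.13) all had log2 fold changes (± SE) within 2 SE of 0.

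Some markers of other cells passed an unadjusted p under 0.05, as 4.91% of all genes did, and none had an adjusted p below 0.728 (edgeR). All 4 erythroid markers tested were higher in Cryo. Their median log2 fold change was 1.49, and 0.66 without Cryo 2, Cryo 4 and Cryo 5. The same removal took the median from 0.85 to 0.74 for adipocyte and from 0.26 to -0.29 for neutrophil markers. Of 6 adipocyte markers 2 were higher, while the sum over the 6 ran from 26.0 to 169.9 CPM in Con and from 24.6 to 256 CPM in Cryo tumors. Of 5 neutrophil markers tested 2 were higher, S100a8 (1.44 ± 1.11 CPM, SD, n = 9 in Con and 3.67 ± 2.90 CPM, SD, n = 8 in Cryo) and S100a9 (2.97 ± 2.42 and 9.07 ± 8.69 CPM). The rest did not pass: Csf3r and Mmp8 leaned lower in Cryo (log2 fold changes -0.51 ± 0.42 and -0.45 ± 0.38, SE) and Retnlg had 0.26 ± 0.68. The sum over the 7 neutrophil markers listed overlapped between the groups (8.67 to 73.9 CPM in Con and 8.65 to 59.2 CPM in Cryo), and Ly6g was at 0 in most tumors. In the other lists, of 7 endothelial and 3 epidermal markers tested 1 each was higher, and of 8 macrophage markers 1 was lower. Of 7 leukocyte, 8 T and NK cell, 8 fibroblast, 5 epithelial and 3 skeletal muscle markers tested 0 passed. Their part in the levels of the replication genes was not tested.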

How the data were processed

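Per the labels and the study's methods, RNA of 17 distant or control tumors was made into libraries with a SMARTER mRNA-Seq kit. The authors deposited one table with whole-number read counts and FPKM values per gene and tumor. The submitters' notes name GRCm38 and mm10, but only 512 of 21827 genes matched in GENCODE M21 have its start and end, so no position of the table is printed. The aligner, counting program and strand setting are not given in the sources used here. The study's text gives the group sizes the other way round, and the labels were followed. All 372827 FPKM values equal the scaled count divided by listed length and total count (tolerance 0.001). The deposited counts summed to between 13524899 and 17898672 per tumor.

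The members, lists and tests were chosen with earlier results of these data known. Counts were filtered with filterByExpr (13005 genes kept) and scaled by TMM. Groups were compared with edgeR 4.0.16's quasi-likelihood test (R 4.3.3), with Benjamini-Hochberg adjustment over 13005 genes and an unadjusted threshold of 0.05. The study's methods name edgeR, Benjamini-Hochberg adjustment and a P-value of 0.05, while its results name DESeq and a p-value under 0.05. Here the study's threshold was applied to unadjusted p. The SE of a fold change is its size over the root of the F statistic, and intervals are 95% t intervals. CPM carries TMM factors, and log2 CPM used a prior count of 2. DESeq2 1.42.0 and limma 3.58.1 (voom with sample quality weights), other scalings and filters, a replicate block, an offset for gene length (natural spline with 4 df), and leaving out tumors were alternatives. Correlations used 100000 two-sided permutations, adjusted over the 35 members for each of 3 measures. Single-gene exact tests used 24310 splits (smallest p 4.11e-05). Scripts were tested on simulated data.

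All 36 members are named. Of each other list the 2 genes with the smallest p in each direction were eligible to be named, besides 8 fixed cell cycle genes and the 10 genes most like the members' mean. Same-numbered Con and Cryo tumors did not deviate together in every pair (r from -0.51 to 0.64 over 8 pairs), so the numbers were not read as pairs. Promoter sequences are from RefSeq (GRCm38.p6), and protein sequences were not analysed here. No pair of tumors had identical counts. At these depths 3 counts equal about 0.2 CPM. Counting error weighs more for members with few counts, such as Orc1 (79 to 188 counts) and Fen1 (0 to 24 counts).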

Additional observations from a re-analysis of the deposited data

Results flagged for a closer look

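In 2 of the 70 sets of values examined, each of 1 member in 1 group, a single tumor lay far from the others; chance alone gives about 1 in 20. Rpa1, the large subunit of the single-strand binding complex, read 260.2 CPM in Cryo 4, while the other 7 Cryo tumors lay between 176 and 209 CPM. Rrm1, the large subunit of ribonucleotide reductase, read 211 CPM in Con 3, while the other 8 Con tumors lay between 251 and 281 CPM.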

How the results depend on the processing

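The adjusted calls (0 members) and the calls past the study's threshold (0) were the same in every alternative run. The members' median log2 fold change lay between 0.04 and 0.11 when single tumors were left out and changed sign without Cryo 2, Cryo 4 and Cryo 5 (-0.03). The count of members higher in Cryo at an unadjusted p under 0.05 was 2 with DESeq2 and 3 with an offset for gene length (Orc6, Cdc45 and Pola2, not Rpa3). In these settings 6.77% and 5.44% of all genes passed. The count was 0 with upper-quartile scaling, no filter, a replicate block, or without Cryo 2, Cryo 4 and Cryo 5 together, where 2.45% to 5.57% of all genes passed. It ran from 0 to 8 when single tumors were left out: 8 without Cryo 7, 5 without Cryo 6, 4 without Cryo 3 or Cryo 8, 3 without Con 1 or Con 5 and 0 without any other. These sets each rest on 1 tumor, and all genes moved with them (10.1% of genes passed without Cryo 7 and 1.93% without Cryo 2). With limma voom 1 member was lower in Cryo (Cdc6). The cause of these moves was not tested.

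Log2 fold changes changed sign in several settings. Without Cryo 2, Cryo 4 and Cryo 5 this included Orc6, Gins1 and Rpa3, the largest in the main fit (0.45, 0.40 and 0.40). A change of sign happened to Cdt1 with DESeq2 (0.0045) and with RLE factors (0.0049), and to Gins3 with upper-quartile scaling (-0.015) and no filter (-0.011). With voom it happened to Mcm5 (0.017), Orc1 (-0.0040), Gins3 (-0.017), Prim2 (0.070) and Rfc1 (0.051). The gene length offset turned Mcm2 (0.083), Mcm5 (0.0052), Gins3 (-0.048), Mcm10 (0.057), Prim2 (0.044), Pole (0.11), Rfc1 (0.062) and Rfc4 (-0.035). Without Cryo 2, Cryo 4 and Cryo 5 the turned values were Mcm2 0.021, Mcm3 -0.026, Mcm4 0.065, Mcm7 -0.052, Orc6 -0.090, Cdc45 -0.018, Gins1 -0.079, Gins2 -0.075, Gins3 -0.089, Gins4 -0.094, Pola1 0.089, Prim1 -0.034, Prim2 0.021, Pole 0.11, Pcna -0.029, Rfc1 0.13, Rfc2 -0.043, Rfc3 -0.055, Rfc4 -0.11, Rfc5 -0.047, Lig1 -0.0087, Rpa1 -0.020, Rpa2 -0.10, Rpa3 -0.026, Rrm1 -0.0048, Tyms -0.12 and Tk1 -0.022. With single tumors left out the members that changed sign ranged over -0.046 to 0.0080 (Mcm2), -0.067 to 0.040 (Mcm5), -0.0013 to 0.13 (Mcm7), -0.034 to 0.031 (Cdt1), -0.046 to 0.051 (Gins3), -0.064 to 0.020 (Prim2), -0.10 to 0.060 (Pole), -0.064 to 0.043 (Rfc1) and -0.0083 to 0.11 (Rfc5). Over all these settings 31 of 35 members changed sign at least in 1.

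The labels number the tumors of both groups alike, but same-numbered tumors share only a number. With the replicate number as a block, 0 members were higher at an unadjusted p under 0.05 and Cdt1 changed sign (0.018). With the block and the length offset 1 member, Pola2, was higher, and the signs of Mcm2 (0.094), Mcm5 (0.020), Cdt1 (0.0029), Gins3 (-0.041), Mcm10 (0.053), Prim2 (0.060), Pole (0.12), Rfc1 (0.081) and Rfc4 (-0.0096) changed.

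The 17 members positively related to Mki67 were 0 without Con 3 and Con 4, 1 within Con, 1 within Cryo and 2 to 21 with single tumors left out; the count of negative ones (0) was 2 with the length trend removed and 0 to 1 with single tumors left out. For Ptprc the positive count (4) was 1 within Con, 1 within Cryo and 0 with the length trend removed, and the negative count (20) was 0 within Cryo and 9 with the trend removed. For the length slope the positive count (6) was 3 within Con and 3 with the trend removed, and the negative count (25) was 14 within Con and 15 within Cryo. Groups of 9 and 8 tumors give fewer calls by their size alone.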
